A study of Danio rerio with 12 samples.

Results

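Wnt signalling genes were followed in whole zebrafish embryos (Danio rerio) kept in an SGLT2 inhibitor or in solvent. Genes were chosen by symbol alone: the Wnt ligands (wnt followed by a digit), the Frizzled receptors (fzd), the secreted antagonists of the Sfrp and Dkk families, the cytoplasmic proteins Axin1, Axin2 and Dvl1 to Dvl3, and lef1. The rule was met by 46 of the 14134 genes measured, made up of 19 ligands, 12 receptors, 9 antagonists, 5 cytoplasmic proteins and lef1. In 45 of the 46 the mean over all libraries was at least 1 CPM (a read count scaled to the size of its library, with TMM correction for differences in library composition), and these were tested. The exception, wnt2ba, had a mean of 0.841 CPM. The CPM values are not divided by transcript length, so differences are taken between groups within a gene. A higher CPM in 1 gene than in another is not read as more transcripts.

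RNA came from 12 pools of 5 embryos each, 4 pools per group, all GFP-positive and freed of the chorion. Control pools were kept in DMSO, and the others in 50 µM empagliflozin or 50 µM canagliflozin, from 23 to 27 hours after fertilization. Both compounds inhibit SGLT2 and are glucosides joined to a pair of linked aromatic rings; canagliflozin carries a methyl group and a thiophene with a fluorophenyl ring, where empagliflozin has a chlorine and a phenyl ring with an oxolanyl ether. The strain and the transgene behind the GFP are not given in the labels, nor the clutch of each pool, so the p-values measure only the spread between these pools.

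Wnt proteins are secreted lipid-modified ligands that bind Frizzled receptors. With the co-receptors Lrp5 and Lrp6, a bound Frizzled recruits Dishevelled (Dvl) and Axin, so that β-catenin is no longer degraded and activates genes together with Lef1 and the Tcf factors. Other Wnt signals act without β-catenin, on cell polarity and movement. Sfrp proteins bind Wnts outside the cell, and Dkk1 blocks Lrp5 and Lrp6. In the embryo at this age the pathway is known for its roles in the tailbud, the dorsal neural tube, the midbrain-hindbrain boundary, the eye and the neural crest.

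Libraries held 16149682 to 27842375 reads. Among the members, reads per gene and library ran from 8 for wnt2ba to 7361 for fzd7a, and a count of 0 would allow up to 3 reads, or 0.109 to 0.186 CPM, counting error only. Control 4 and canagliflozin 4 deviated together from the other pools of their groups over all tested genes (correlation of deviations 0.592). The correlation was 0.256 or less between the other same-numbered libraries of different groups. Between libraries of different groups and different numbers it was -0.390 to 0.331. Results that rest on them are therefore also given without both. Control 4 and canagliflozin 4 were picked from these same data, by their deviations. Without both, limma called 35.5% of all tested genes for empagliflozin against control, against 13.3% with all libraries. Between the compounds it called 40.8%, against 25.5%. For the genes below, a pass or a larger difference in that fit is therefore not read as further support. In whole embryos, fewer cells of a type and less RNA per cell cannot be told apart.

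Across the 45 genes, 5 passed in limma for empagliflozin against control, or 11.1%, against 13.3% of all 11964 tested genes. They were 2 higher and 3 lower, where 6.87% of all genes were higher and 6.41% lower. For canagliflozin against control 0 passed, beside 0% of all genes. There 5 members and 925 of all genes had an unadjusted limma p under 0.05, edgeR called 0 genes and DESeq2 24, none of them members. For empagliflozin against canagliflozin 14 passed, or 31.1% against 25.5% of all genes. They were 4 higher and 10 lower, where 12.4% of all genes were higher and 13.1% lower. Pools of the compared groups did not overlap in 10 of 45 genes (22.2%) for empagliflozin against control and in 15 (33.3%) between the compounds, against 19.1% and 25.6% of all genes. The median log2 difference of the 45 genes was -0.0044, 0.042 and -0.064 in these 3 comparisons, beside -0.0011, -0.0028 and 0.0072 for all tested genes. Without control 4 and canagliflozin 4 the counts were 11 of 45 (24.4%), 0 and 22 of 45 (48.9%), against 35.5%, 0% and 40.8% of all genes. For empagliflozin against control, 0 members and 268 of all genes passed without control 3, and 6 members and 3033 of all genes without control 4. The comparisons share groups and are not independent of each other.

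**Figure D1:**
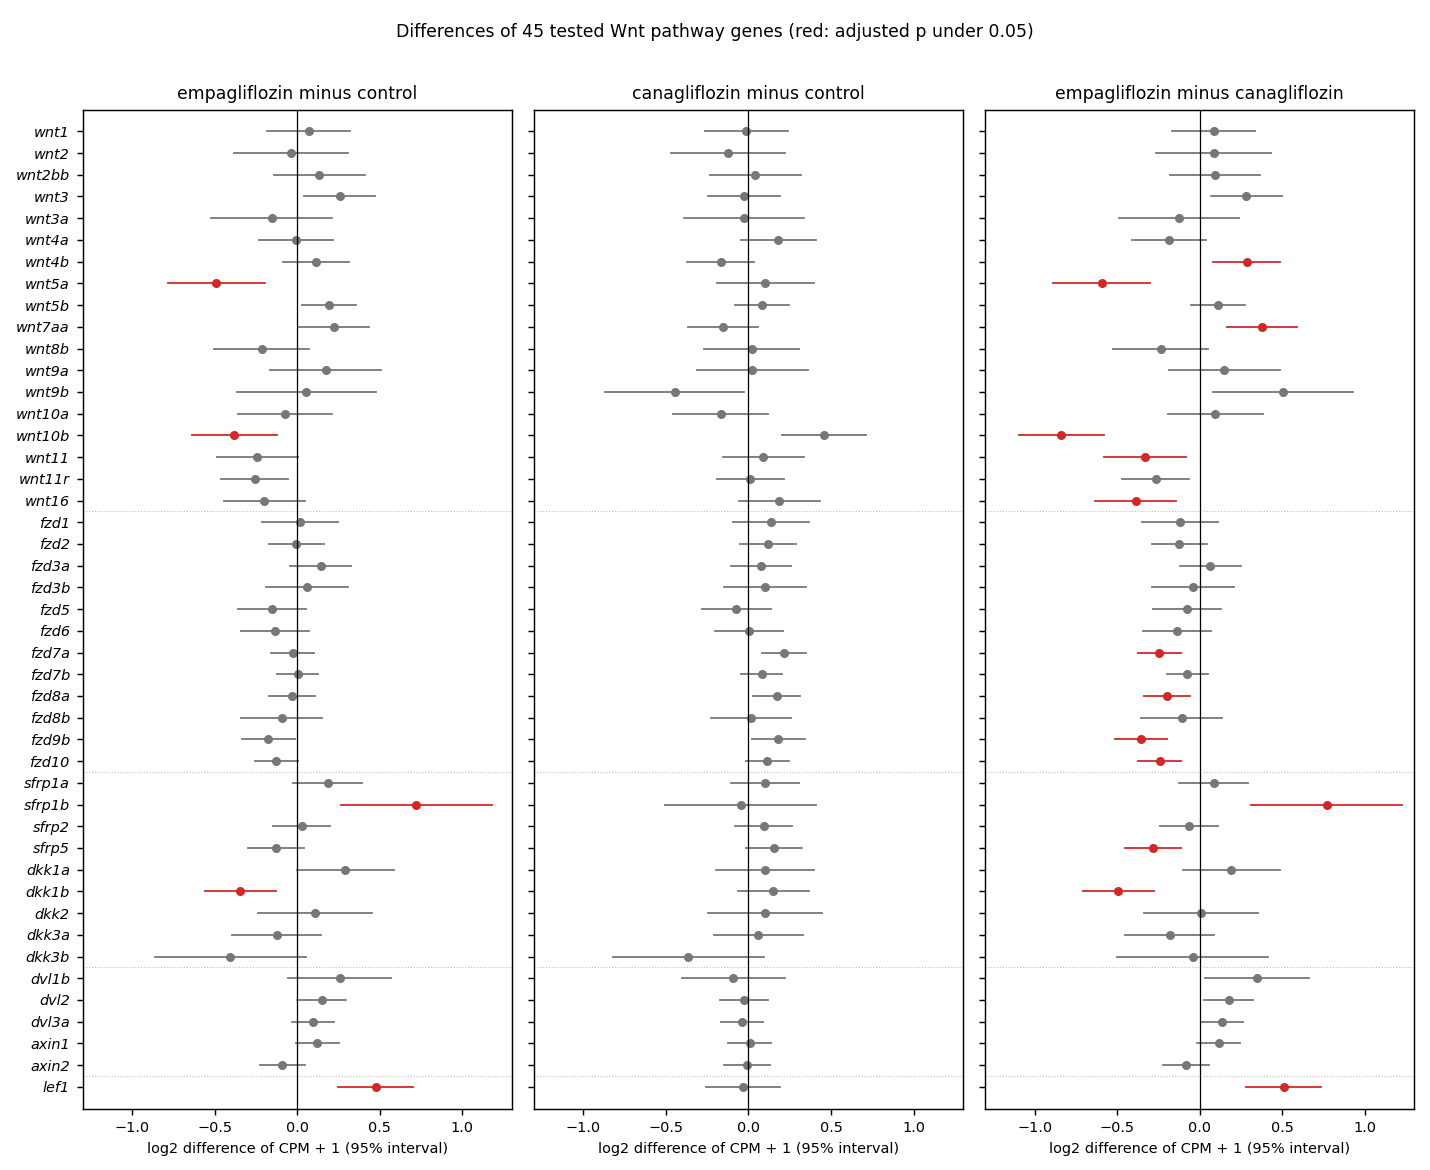
Log2 difference of CPM + 1 (points) with 95% limma intervals (lines) for the 45 tested Wnt pathway genes in 3 comparisons, ordered by role from ligands at the top to lef1 at the bottom, with dotted lines between roles. Genes in red had a limma adjusted p under 0.05: 5 for empagliflozin against control, 0 for canagliflozin against control and 14 for empagliflozin against canagliflozin.

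Among the ligands, wnt10b had the widest gap between the compounds. Wnt10b is a ligand that in zebrafish is expressed with wnt1 in the dorsal neural tube. Its level (Entrez 30308) was 6.60, 8.29, 8.62 and 5.50 CPM in the control pools, 4.94, 5.14, 5.56 and 5.42 with empagliflozin and 10.6, 9.13, 11.2 and 9.996 with canagliflozin. All 4 canagliflozin pools stood above all controls, and the empagliflozin pools overlapped the controls only through control 4. Between the compounds it was 5.27 ± 0.280 against 10.2 ± 0.877 CPM (SD, n = 4 each; log2 -0.84, 95% interval -1.10 to -0.58, limma adjusted p 0.000479). It kept this call whichever library was left out. Against control it fell with empagliflozin (log2 -0.38, 95% interval -0.64 to -0.12, limma adjusted p 0.0487). That call was lost without any 1 of controls 1 to 3, of the 4 empagliflozin pools or of canagliflozin 1 to 3 (adjusted p 0.0559 to 0.147), and held without control 4. The difference between canagliflozin and control was 0.46 (interval 0.20 to 0.71), which did not pass (adjusted p 0.487).

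The neighbour of wnt10b, wnt1, did not pass in any comparison. In the RefSeq annotation of GRCz12tu, a newer assembly than the danRer10 build named in the submitters' processing notes, no protein-coding gene lies between wnt10b and wnt1, and their annotated spans overlap. Reads in the overlap cannot be told apart without knowing how strands were counted. wnt1, the ligand of the midbrain-hindbrain boundary and dorsal midline, was at 8.88, 8.42, 11.1 and 9.17 CPM in control, 8.39, 8.83, 11.97 and 10.6 with empagliflozin and 9.61, 9.13, 10.2 and 8.09 with canagliflozin. The groups overlapped, and the difference between the compounds was 0.084 (interval -0.17 to 0.33). wnt3a and wnt9a are likewise direct neighbours there, and neither passed in any comparison with all libraries. Without control 4 and canagliflozin 4 wnt3a was lower with empagliflozin than with canagliflozin and passed (log2 -0.34, limma adjusted p 0.0372, against -0.13 with all libraries).

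wnt5a (Entrez 568191), a ligand known mostly for signals that do not use β-catenin, was lower with empagliflozin than in both other groups. It was at 1.29, 1.55, 2.12 and 2.04 CPM in control, 0.872, 1.12, 0.630 and 1.20 with empagliflozin and 1.93, 1.80, 2.14 and 1.86 with canagliflozin, or 12 to 49 reads per library. The empagliflozin pools all lay below every other pool. It fell against control (log2 -0.49, 95% interval -0.78 to -0.20, limma adjusted p 0.0346) and was lower than with canagliflozin (log2 -0.59, 95% interval -0.89 to -0.30, limma adjusted p 0.00693). At so low a level the pseudocount sets the size: with 0.1 in place of 1 the log2 differences were -0.82 and -0.98, and with 5 they were -0.18 and -0.22. The call against control was lost without control 2 or 3 or empagliflozin 1, 2 or 3 (adjusted p 0.0583 to 0.109), and that against canagliflozin was kept in each fit without a library.

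Its relative wnt5b (Entrez 30105), the ligand mutated in the zebrafish pipetail line and needed for cell movements of gastrulation, was not lower in the empagliflozin pools. wnt5b was at 22.4, 23.1, 22.9 and 27.1 CPM in control, 28.6, 28.7, 26.5 and 25.7 with empagliflozin and 25.6, 26.3, 25.2 and 23.9 with canagliflozin. Control 4 was the highest control and reached into the empagliflozin range. The difference from control was 0.19 (adjusted p 0.103), and it passed without control 4 and canagliflozin 4 (log2 0.25, limma adjusted p 0.00869).

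Of the other ligands, wnt7aa and wnt4b were higher with empagliflozin than with canagliflozin. wnt7aa (Entrez 565714), a ligand of the nervous system, was at 16.1, 13.1, 15.3 and 16.3 CPM with empagliflozin and 11.2, 12.5, 11.5 and 10.5 with canagliflozin, without overlap, and at 13.8, 12.2, 11.1 and 14.5 in control (log2 0.38, 95% interval 0.17 to 0.59, limma adjusted p 0.013). wnt4b (Entrez 791993), a ligand of the zebrafish floor plate, was at 11.4, 10.3, 12.8 and 10.7 against 8.997, 10.2, 8.45 and 8.76 CPM, with controls at 9.58, 9.72, 10.8 and 11.3 (log2 0.28, 95% interval 0.082 to 0.49, limma adjusted p 0.0391). The empagliflozin and canagliflozin pools of wnt4b did not overlap, but the call was lost without empagliflozin 1 or 3 or canagliflozin 1, 3 or 4 (adjusted p 0.0519 to 0.117) and with the replicate number as a block (adjusted p 0.0519). Neither gene passed against control with all libraries, and wnt7aa did without control 4 and canagliflozin 4 (log2 0.28, limma adjusted p 0.0399).

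wnt11 and wnt16 were lower with empagliflozin than with canagliflozin. wnt16 (Entrez 791563), which in zebrafish is needed for the specification of blood stem cells, was at 5.92, 5.19, 4.93 and 4.87 against 7.63, 5.84, 8.85 and 6.50 CPM, with controls at 6.02, 5.95, 5.94 and 6.67 (log2 -0.39, 95% interval -0.63 to -0.14, limma adjusted p 0.0233). Canagliflozin 2 lay within the empagliflozin range, so that these groups overlapped. The row named wnt11 was at 8.10, 6.84, 7.77 and 6.12 against 8.81, 8.38, 11.4 and 8.80 CPM, with controls at 9.52, 7.79, 7.95 and 9.51 (log2 -0.33, 95% interval -0.58 to -0.085, limma adjusted p 0.0469). The pools of wnt11 did not overlap between the compounds, while the controls lay across both. The wnt16 call was lost without empagliflozin 2, 3 or 4 or canagliflozin 1 or 3 (adjusted p 0.0519 to 0.0824), and the wnt11 call without control 1 or 2, empagliflozin 2, 3 or 4 or canagliflozin 1, 2 or 3 (adjusted p 0.0522 to 0.152).

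Which gene the rows wnt11 and wnt11r stand for is not settled by the table. The table pairs wnt11 with Entrez 30283, whose current RefSeq symbol is also wnt11. RefSeq lists wnt11r as an older name of that ID and wnt11 as an older name of wnt11f2. Both are ligands of cell movement and polarity. wnt11r was at 51.9, 50.9, 57.8 and 40.5 CPM in control, 41.7, 37.7, 41.6 and 45.7 with empagliflozin and 53.9, 47.1, 51.1 and 49.3 with canagliflozin. Apart from control 4, the lowest control, all control and canagliflozin pools stood above the empagliflozin pools. The difference from control was -0.26 (adjusted p 0.0806) and that from canagliflozin -0.27 (adjusted p 0.0502), neither of which passed. Both passed without control 4 and canagliflozin 4 (log2 -0.35, limma adjusted p 0.0021, and log2 -0.28, limma adjusted p 0.00823). With all libraries, wnt11r also passed between the compounds in DESeq2 (adjusted p 0.0342) and in 4 limma settings. These were quantile normalization (adjusted p 0.0485), the replicate block (0.045), a minimum of 5 CPM (0.0463) and the compared groups alone (0.0219). It did not pass in edgeR or with median centring.

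In all, 2 of 18 tested ligands passed against control, both lower with empagliflozin, where 6.41% of all genes were lower. Between the compounds 6 passed, 2 higher and 4 lower, where 12.4% and 13.1% of all genes were. The log2 differences from control of the 18 ranged from -0.49 to 0.26 with empagliflozin and from -0.45 to 0.46 with canagliflozin. wnt3, whose empagliflozin pools lay above all others, differed between empagliflozin and control by 0.26 (adjusted p 0.0972) and between the compounds by 0.28 (adjusted p 0.0521), and the latter passed without control 4 and canagliflozin 4 (log2 0.34, limma adjusted p 0.0181). In RefSeq its annotated span overlaps the gene nsfb. Those of wnt2bb, wnt5b, wnt11 (taken as Entrez 30283), fzd3a, fzd8b, sfrp1a and dvl1b also overlap a protein-coding neighbour. The counts of these genes may thus hold reads of both. The untested wnt2ba was at 1.34, 0.880, 0.981 and 0.667 CPM in control, 1.05, 1.12, 0.787 and 1.003 with empagliflozin and 0.471, 0.497, 0.447 and 0.840 with canagliflozin.

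Several ligands were low in canagliflozin 4. wnt9b (Entrez 565677), a ligand known in vertebrates for kidney tubule formation, was at 16.8, 18.2, 17.5 and 7.21 CPM in the canagliflozin pools, against 22.1, 18.8, 19.8 and 17.9 in control and 19.7, 21.3, 21.4 and 19.3 with empagliflozin. The last canagliflozin value stood far below all others. In 10 of the 18 ligands canagliflozin 4 was the lowest pool of its group, and in 2 the highest; over all tested genes it was the lowest in 38.7% and the highest in 35.3%. wnt3a was at 4.57, 5.34, 4.47 and 2.21 CPM there and wnt9a at 3.30, 3.35, 3.08 and 1.77. With this library, wnt9b differed between canagliflozin and control by -0.45 (interval -0.87 to -0.025, adjusted p 0.634). Between the compounds it differed by 0.50 (adjusted p 0.0734), and without control 4 and canagliflozin 4 by less, though it then passed (log2 0.21, limma adjusted p 0.0424). It also passed with the replicate number as a block (adjusted p 0.0363).

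**Figure D2:**
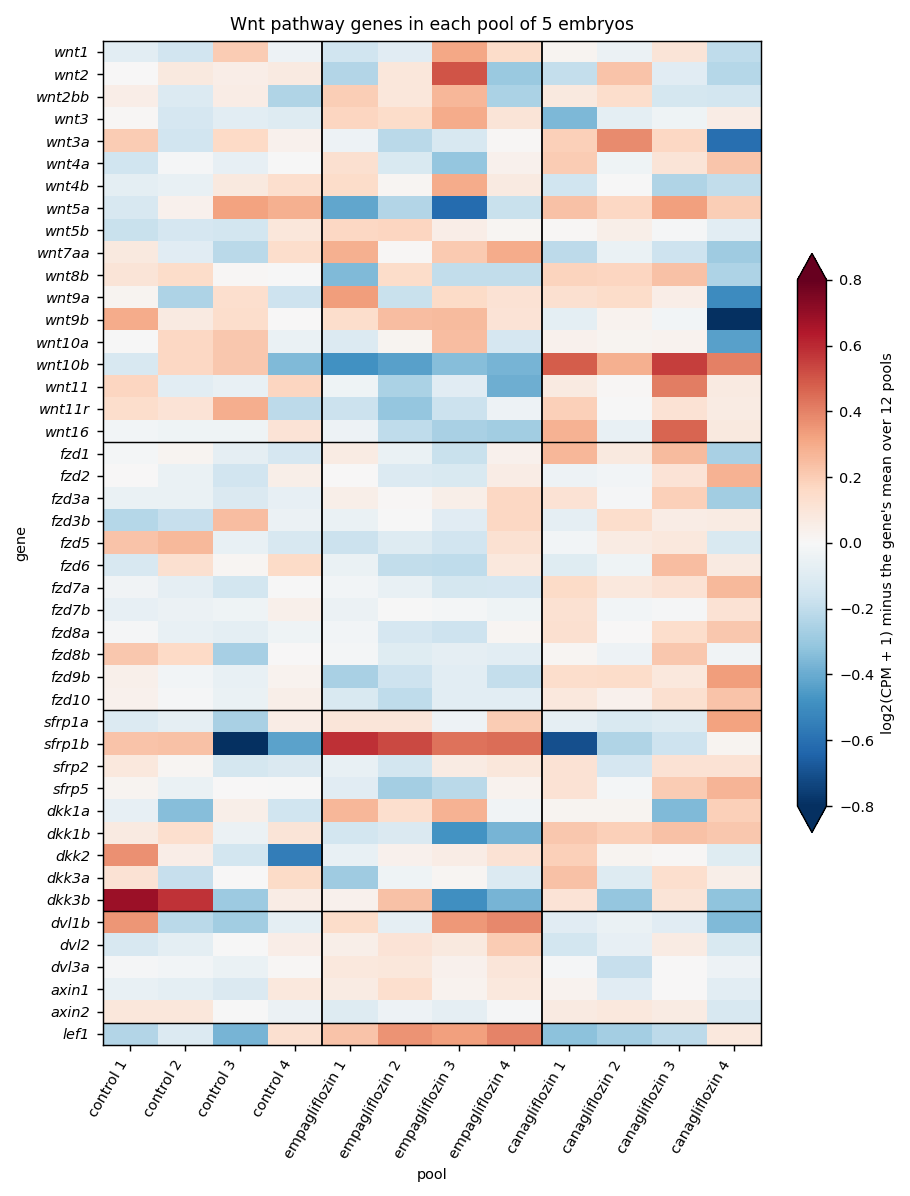
Log2(CPM + 1) of each tested Wnt pathway gene (rows, by role) in each of 12 pools (columns), minus the mean of that gene over the 12 pools. Colours saturate at 0.8 in either direction. wnt10b and dkk1b are lower in the 4 empagliflozin pools and higher in the 4 canagliflozin pools, lef1 and sfrp1b are higher in the empagliflozin pools, and wnt9b is lowest in canagliflozin 4.

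The Frizzled receptors differed between the compounds by small amounts. Of 12 receptors, 4 were lower with empagliflozin than with canagliflozin and 0 higher, against 13.1% of all genes lower. Without control 4 and canagliflozin 4 fzd1 was lower too (log2 -0.23, limma adjusted p 0.0329, against -0.12 with all libraries). With all libraries the means of 11 of the 12 lay lower, with a median log2 difference of -0.12, beside 0.0072 for all tested genes. Against control limma called 0 of 12 with either compound, where it called 13.3% of all genes with empagliflozin and 0% with canagliflozin. An unadjusted limma p under 0.05 was found for 1 receptor with empagliflozin and 3 with canagliflozin, the latter beside 7.73% of all genes. That share is not reported here for empagliflozin. With canagliflozin the means of 11 of 12 were above control, with a median of 0.11 and a range of -0.074 to 0.22. The median of all tested genes was -0.0028. With empagliflozin 4 of 12 were above control, with a range of -0.17 to 0.14. How many of all genes had means above or below was not counted.

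fzd9b (Entrez 58023) was the receptor with the largest difference between the compounds and between empagliflozin and control. Between canagliflozin and control that was fzd7a. It was at 25.2, 24.05, 23.5 and 25.02 CPM in control, 20.3, 21.7, 22.99 and 21.3 with empagliflozin and 27.1, 27.3, 26.04 and 31.1 with canagliflozin. The 3 groups did not overlap at all: every empagliflozin pool lay below every control and every canagliflozin pool above. Between the compounds the difference passed (log2 -0.35, 95% interval -0.51 to -0.20, limma adjusted p 0.00401). Against control it did not, at -0.17 with empagliflozin (adjusted p 0.121) and 0.18 with canagliflozin (adjusted p 0.607).

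fzd7a (Entrez 30369), a receptor of gastrulation movements and mesendoderm in zebrafish, was at 267, 258, 245 and 271 CPM in control, 267, 260.1, 246 and 247 with empagliflozin and 303, 288, 294 and 325 with canagliflozin. The canagliflozin pools lay above all others, while control and empagliflozin overlapped. The compounds differed (log2 -0.24, 95% interval -0.38 to -0.11, limma adjusted p 0.011), and canagliflozin differed from control by 0.22 without passing (interval 0.084 to 0.35, adjusted p 0.493). fzd10 (Entrez 30366), a receptor of the dorsal neural tube, was at 101, 95.8, 104 and 104 CPM with empagliflozin and 117, 113, 121 and 129.6 with canagliflozin, again without overlap, and at 113, 109.6, 106 and 114 in control (log2 -0.24, 95% interval -0.37 to -0.11, limma adjusted p 0.0105). The calls of fzd7a, fzd9b and fzd10 between the compounds were kept whichever library was left out. The smaller difference of fzd8a, a receptor of the forebrain (log2 -0.20, 95% interval -0.34 to -0.059, limma adjusted p 0.037), was lost without empagliflozin 1, 2 or 3 or canagliflozin 1, 3 or 4 (adjusted p 0.0512 to 0.106).

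Among the secreted antagonists calls went in both directions. Of 9, sfrp1b rose and dkk1b fell with empagliflozin against control, and between the compounds sfrp1b was higher and dkk1b and sfrp5 were lower with empagliflozin. Of all genes 6.87% rose and 6.41% fell against control, and 12.4% were higher and 13.1% lower between the compounds. dkk1b (Entrez 30197), an inhibitor of Lrp5 and Lrp6 known in zebrafish for allowing head formation, was at 6.37, 6.70, 5.78 and 6.55 CPM in control, 5.34, 5.48, 4.04 and 4.41 with empagliflozin and 7.16, 7.02, 7.26 and 7.17 with canagliflozin. The 3 groups did not overlap, with empagliflozin lowest and canagliflozin highest at 7.15 ± 0.0984 CPM (SD, n = 4). It fell with empagliflozin against control (log2 -0.34, 95% interval -0.56 to -0.13, limma adjusted p 0.0382) and was lower than with canagliflozin (log2 -0.49, 95% interval -0.71 to -0.28, limma adjusted p 0.00347). The call against control was lost without control 1, 2 or 3, without any 1 of the empagliflozin pools or without canagliflozin 3 (adjusted p 0.0509 to 0.107), and the call between the compounds was kept in each such fit. Canagliflozin and control differed by 0.15 (interval -0.065 to 0.37, adjusted p 0.744).

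sfrp1b (Entrez 798564), which encodes a Wnt-binding decoy protein, varied widely among controls. It was at 9.06, 9.13, 3.51 and 5.38 CPM in control, 11.9, 11.4, 10.6 and 10.7 with empagliflozin and 4.29, 6.27, 6.66 and 7.74 with canagliflozin. The empagliflozin pools were close together and above every other pool, while controls 1 and 2 stood well above controls 3 and 4. It rose against control (log2 0.72, 95% interval 0.26 to 1.18, limma adjusted p 0.0393) and was higher than with canagliflozin (log2 0.77, 95% interval 0.31 to 1.23, limma adjusted p 0.0172). The call against control was lost without control 3 or 4, any 1 of the empagliflozin pools or canagliflozin 3 (adjusted p 0.0507 to 0.114) and in edgeR (adjusted p 0.0558). The call between the compounds was lost without canagliflozin 1 (adjusted p 0.0627).

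Of the other antagonist genes, sfrp1a, sfrp5 and dkk3b did not pass against control with all libraries. sfrp1a (Entrez 402843) was at 69.1, 71.2, 62.3 and 77.8 CPM in control, 80.1, 80.02, 72.6 and 86.1 with empagliflozin and 70.9, 68.7, 69.4 and 93.5 with canagliflozin, and did not pass (0.18 against control with empagliflozin, adjusted p 0.203). Control 4 and canagliflozin 4 were the highest pools of their groups, and without both sfrp1a passed against control (log2 0.24, limma adjusted p 0.012) and against canagliflozin (log2 0.19, limma adjusted p 0.0308). sfrp5 (Entrez 117510) was at 38.9, 34.2, 35.6 and 42.3 CPM with empagliflozin, 45.1, 40.99, 47.95 and 50.4 with canagliflozin and 42.1, 39.97, 41.5 and 41.4 in control, and the compounds differed with overlapping pools (log2 -0.28, 95% interval -0.45 to -0.11, limma adjusted p 0.0186). That call was lost without empagliflozin 2 or 3 or canagliflozin 3 (adjusted p 0.0547 to 0.0651). The Dickkopf gene dkk3b, with 25 to 92 reads per library, was at 4.21, 3.85, 1.65 and 2.38 CPM in control against 2.32, 2.81, 1.31 and 1.51 with empagliflozin and 2.50, 1.61, 2.48 and 1.59 with canagliflozin, with differences of -0.41 and -0.36 from control that did not pass.

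**Figure D3:**
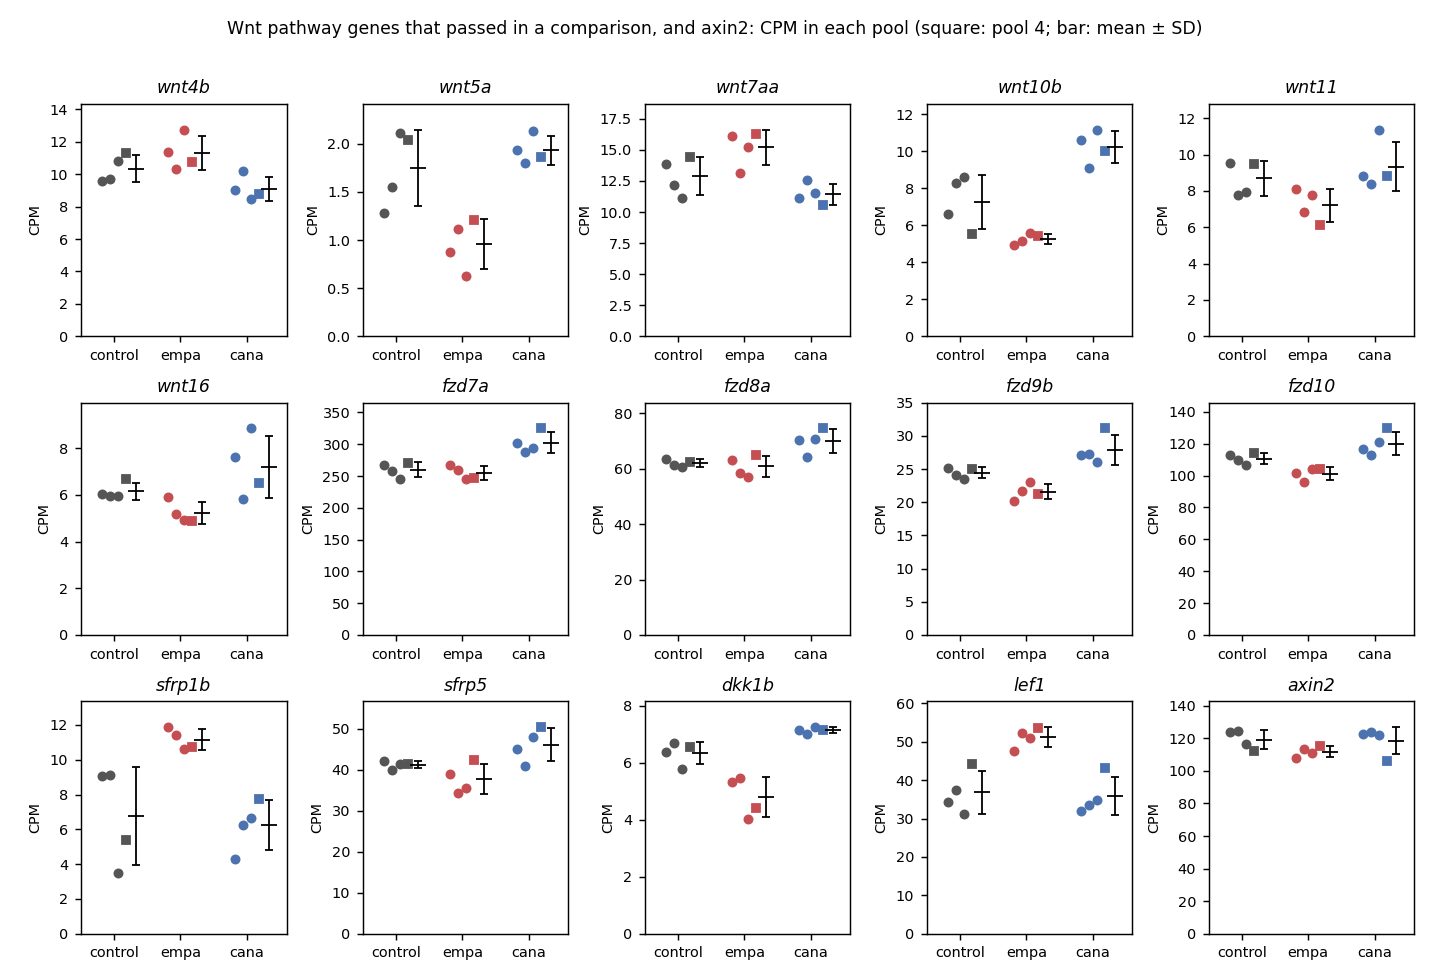
CPM (vertical axes, from 0) in each of 4 pools per group for the 14 Wnt pathway genes that passed in at least 1 comparison and for axin2. Circles are pools 1 to 3, squares pool 4, and bars the mean ± SD of the group. The empagliflozin pools of lef1 lie above all others and those of wnt5a below all others, while in wnt10b and dkk1b the 4 canagliflozin pools are the highest and in axin2 the groups overlap.

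lef1 (Entrez 30701), the DNA-binding partner of β-catenin and itself a target of the pathway, rose with empagliflozin. It was at 34.2, 37.5, 31.1 and 44.3 CPM in control, 47.5, 52.3, 51.1 and 53.7 with empagliflozin and 32.03, 33.4, 34.9 and 43.1 with canagliflozin. All empagliflozin pools lay above all others, and control 4 and canagliflozin 4 were the highest pools of their groups. The mean was 51.1 ± 2.63 against 36.8 ± 5.63 CPM in control (SD, n = 4 each; log2 0.47, 95% interval 0.25 to 0.70, limma adjusted p 0.016) and 35.9 ± 4.96 with canagliflozin (log2 0.51, 95% interval 0.28 to 0.73, limma adjusted p 0.00374). Control 4 stood 0.36 above the mean of the other 3 controls (log2), against 0.57 for the empagliflozin mean. Without control 4 and canagliflozin 4 the differences were larger (log2 0.57, limma adjusted p 4.69e-05, and log2 0.60, limma adjusted p 2.1e-05). Among fits without a library, the call against control was lost without control 3 (adjusted p 0.0582), and the call between the compounds was kept in each. Canagliflozin and control differed by -0.033 (interval -0.26 to 0.19).

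axin2 (Entrez 58080), the feedback inhibitor that is widely read as a sign of β-catenin signalling, did not pass in any comparison with all libraries. It was at 124, 124, 116 and 112 CPM in control, 108, 113, 111 and 115 with empagliflozin and 123, 124, 122 and 106 with canagliflozin, and the groups overlapped. Its log2 difference from control was -0.09 with empagliflozin (interval -0.23 to 0.048, adjusted p 0.353) and -0.0087 with canagliflozin (interval -0.15 to 0.13). Between the compounds it was -0.081 (interval -0.22 to 0.057, adjusted p 0.37), and without control 4 and canagliflozin 4 it was lower with empagliflozin and passed (log2 -0.13, limma adjusted p 0.0433).

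The other cytoplasmic genes did not pass in any comparison with all libraries. axin1 (Entrez 57931), a scaffold of the complex that degrades β-catenin, was at 109, 108, 105 and 121 CPM in control and 119, 125, 116 and 121 with empagliflozin. Control 4 stood within the empagliflozin range, and without it and canagliflozin 4 axin1 passed (log2 0.16, limma adjusted p 0.0233). The Dishevelled gene dvl3a was at 84.5, 83.7, 82.1 and 85.8 CPM in control, 90.3, 90.6, 87.3 and 91.1 with empagliflozin and 84.4, 74.7, 85.2 and 82.8 with canagliflozin. Its empagliflozin pools lay above all others, with mean log2 differences of 0.095 (adjusted p 0.277) against control and 0.14 (adjusted p 0.103) against canagliflozin. dvl2 differed from control by 0.15 and passed without control 4 and canagliflozin 4 (log2 0.18, limma adjusted p 0.0459), and dvl1b differed by 0.26 (adjusted p 0.239).

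Canagliflozin against control gave no call among the members. limma, edgeR and DESeq2 each called 0 of 45, and 5 had an unadjusted limma p under 0.05 (11.1%, against 7.73% of all genes). In 5 members every canagliflozin pool lay above every control pool (11.1%, against 2.66% of all genes higher and 4.49% in either direction). These were wnt10b, fzd7a, fzd8a, fzd9b and dkk1b. fzd8a was at 63.6, 61.3, 60.6 and 62.4 CPM in control and 70.2, 64.2, 70.8 and 74.5 with canagliflozin, a difference of 0.17 (interval 0.03 to 0.31, adjusted p 0.595). The 5 genes were singled out by their values.

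Members that share a family number did not always have the same difference. The log2 ratio of dkk1a to dkk1b was -1.64 to -1.07 in the control pools, -0.92 to -0.41 with empagliflozin and -1.76 to -1.20 with canagliflozin, with the empagliflozin pools above all others. dkk1a, another inhibitor of Lrp5 and Lrp6, was at 1.99, 1.47, 2.22 and 1.79 CPM in control, 2.76, 2.42, 2.78 and 2.06 with empagliflozin and 2.17, 2.17, 1.44 and 2.57 with canagliflozin, and did not pass in any comparison. The ratio of wnt5a to wnt5b was -4.07 to -3.60 with empagliflozin, below the -3.35 to -2.94 of control and the -3.28 to -3.06 of canagliflozin. That of fzd7a to fzd7b was 1.26 to 1.41 in control, 1.24 to 1.40 with empagliflozin and 1.40 to 1.51 with canagliflozin, where control and canagliflozin overlapped. That of wnt10a to wnt10b was -1.80 to -1.22 with canagliflozin, below the -0.95 to -0.66 of control and the -0.72 to -0.37 of empagliflozin. That of wnt9a to wnt9b was -2.18 to -1.57 with canagliflozin, above the -2.58 to -2.27 of control. With empagliflozin it was -2.68 to -2.06 and overlapped both. That of sfrp1a to sfrp1b was 2.66 to 2.89 with empagliflozin, below the 3.20 to 3.77 of canagliflozin. In control it was 2.80 to 3.81 and overlapped both. All groups overlapped for the pairs of wnt4, fzd3, fzd8 and dkk3. The genes dkk1b, wnt5a, wnt10b, fzd7a and sfrp1b had been called above, so the ratios with them are not separate results. The ratios of CPM + 1 were computed after the values had been seen and were not tested.

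Other genes of the pathway were counted from lists. Of 8 co-receptor genes tested, 2 rose with empagliflozin against control and 0 fell, where 6.87% of all genes were higher and 6.41% lower. lrp5, the co-receptor gene, was at 122 ± 10.7 CPM against 86.6 ± 5.19 in control (log2 0.49, limma adjusted p 0.00349), and was also higher than with canagliflozin (0.40, adjusted p 0.00174). lrp6, its paralogue, rose by 0.34, a call lost without controls 1, 2 or 3 or empagliflozin 1, 2 or 4 (adjusted p 0.0877 to 0.113). Between the compounds 2 of the 8 were higher with empagliflozin and 1 lower, where 12.4% and 13.1% of all genes were. The polarity co-receptor gene ptk7a was higher by 0.34, lost without empagliflozin 2 (adjusted p 0.0627), and the glypican gene gpc4 was lower (-0.49). Of 11 genes of Wnt secretion and extracellular control, limma called 0 against control, where it called 13.3% of all genes. Of the 11, 4 had an unadjusted limma p under 0.05. Such a p was common over all genes in that comparison. The member dvl2, with an unadjusted limma p of 0.0501, ranked 3877 of 11964 from the smallest p. Between the compounds 1 of the 11 was higher with empagliflozin and 2 lower, beside the same 12.4% and 13.1% of all genes. porcnl, of the family of enzymes that add the lipid to Wnt, was lower (-0.64, limma adjusted p 0.00549). So was the Wnt carrier wls (-0.25, limma adjusted p 0.0102). The agonist gene rspo2 was higher (0.55), a call lost without empagliflozin 1, 2 or 3 or canagliflozin 1, 2 or 3 (adjusted p 0.0546 to 0.091).

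Among these lists, which differed in size, the nuclear factors held the most calls against control. Of 16 tested, 5 rose with empagliflozin against control and 0 fell, where 6.87% of all genes were higher and 6.41% lower. The median log2 difference was 0.20, beside -0.0011 for all genes. Against canagliflozin 5 were higher with empagliflozin, where 12.4% of all genes were. tcf7l2, a DNA-binding partner of β-catenin like lef1, was at 118 ± 8.29 CPM against 73.3 ± 13.7 in control and 73.6 ± 16.9 with canagliflozin (log2 0.69, adjusted p 0.00852, and 0.70, adjusted p 0.0025). It kept both calls whichever library was left out. The β-catenin cofactor gene bcl9 rose by 0.29, lost without controls 1, 2 or 3 or empagliflozin 2 or 4 (adjusted p 0.0502 to 0.0725). aes (now tle5), a short relative of the Groucho co-repressors, rose by 0.47, lost without control 2 or 3 (adjusted p 0.0562 to 0.0567). The Groucho-family co-repressor gene tle3a rose by 0.36, lost without controls 1, 2 or 3 or empagliflozin 2, 3 or 4 (adjusted p 0.0587 to 0.0795). The remaining gene was pygo2, which encodes a chromatin reader of the same complex as bcl9 (0.52, adjusted p 0.0357), a call lost without any 1 of controls 1 to 3 or of the empagliflozin pools (adjusted p 0.0604 to 0.111). Between the compounds cby1, an antagonist of β-catenin, was higher (0.29), a call lost without any 1 of controls 1 to 3, of the empagliflozin pools or of canagliflozin 1 and 2 (adjusted p 0.0503 to 0.141).

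Of 16 genes of the β-catenin destruction complex and its partners, 0 rose and 1 fell against control, where 6.87% and 6.41% of all genes did. Between the compounds 3 were lower with empagliflozin, where 13.1% of all genes were. β-catenin itself, ctnnb1, was at 935 ± 27.3 CPM with empagliflozin and 1142 ± 51.1 with canagliflozin (log2 -0.29, limma adjusted p 0.00596), and its paralogue ctnnb2 differed by -0.31, lost without empagliflozin 3 or canagliflozin 1 or 3 (adjusted p 0.0522 to 0.0553). The gene that fell against control, fbxw11b, encodes an F-box protein of the ubiquitin ligase that marks β-catenin (-0.35). This call was lost without controls 1, 2 or 3, any 1 of the empagliflozin pools or canagliflozin 2 (adjusted p 0.0506 to 0.13). Between the compounds it was lower by 0.32, lost without any 1 of the empagliflozin pools or canagliflozin 1, 2 or 3 (adjusted p 0.0535 to 0.115).

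Of 14 target genes other than lef1 and axin2, 2 rose with empagliflozin against control, where 6.87% of all genes were higher, and 0 fell (median log2 0.081). Against canagliflozin 2 were higher with empagliflozin, where 12.4% of all genes were. nkd1, a feedback inhibitor that binds Dishevelled, was at 60.3 ± 3.13 CPM against 44.95 ± 6.52 in control (log2 0.42, limma adjusted p 0.0171), lost without control 1, 2 or 3 (adjusted p 0.0508 to 0.0586), and it was higher than with canagliflozin by 0.43 (adjusted p 0.00594), a call kept whichever library was left out. sp5a, a transcription factor gene, rose by 0.37, lost without controls 1, 2 or 3, any 1 of the empagliflozin pools or canagliflozin 1 or 3 (adjusted p 0.0529 to 0.139). ccnd1, cyclin D1, was higher than with canagliflozin by 0.26 (adjusted p 0.00914). nkd1 was also on the list of receptor turnover and Dvl inhibitors, so its calls count in both lists. Of 4 genes tested there it was the 1 called, higher against control and between the compounds. Of all genes 6.87% and 12.4% were higher. Of 13 genes of planar cell polarity, 1 rose against control, where 6.87% of all genes did: the kinase gene mapk8b (0.54, adjusted p 0.00885). It kept this call whichever library was left out. Between the compounds 4 genes of this list were higher, where 12.4% of all genes were. Lower was 1, the GTPase gene rac1a (-0.24, adjusted p 0.0224), where 13.1% of all genes were. The rac1a call was lost without empagliflozin 1, 2 or 3 or canagliflozin 1 or 3 (adjusted p 0.0568 to 0.0812). For canagliflozin against control no gene of these lists was called in limma.

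**Figure D4:**
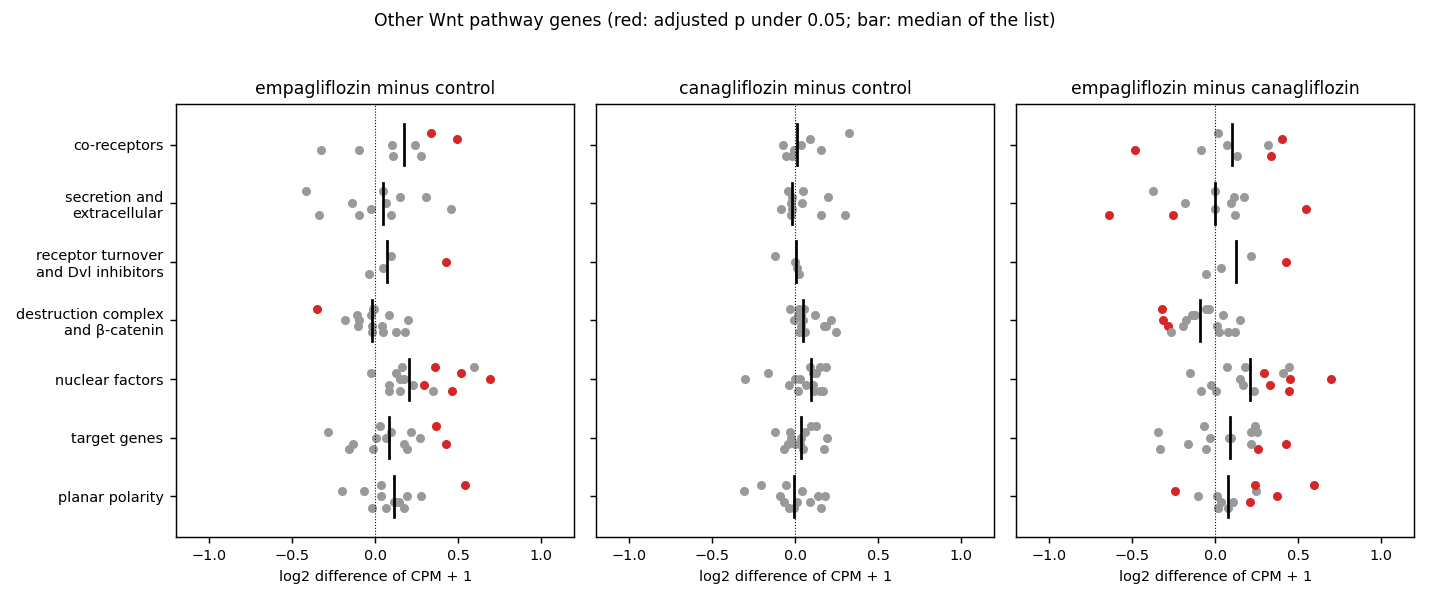
Log2 difference of CPM + 1 for other genes of the Wnt pathway (points) by list, in 3 comparisons, with the list median as a bar and genes with a limma adjusted p under 0.05 in red. The nuclear factors have 5 of 16 genes higher with empagliflozin than in control and 0 lower, where 6.87% of all tested genes were higher. No gene is red for canagliflozin against control.

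Markers of cell types were measured beside these results. Over all tested genes, 6.87% were higher and 6.41% lower with empagliflozin against control. Against canagliflozin, 12.4% of all genes were higher with empagliflozin and 13.1% lower. Of 5 neuron markers tested, 4 rose with empagliflozin against control and 5 were higher than with canagliflozin, and the summed level of the 5 was 718 to 756 CPM against 526 to 620.0 in control and 533 to 601 with canagliflozin. Against control elavl3 and elavl4 kept the call whichever library was left out, while isl1 lost it without any 1 of 6 libraries and stmn1b without any 1 of 5. Of 6 eye markers 3 rose against control, with summed levels of 405 to 434, 296 to 365 and 306 to 390.3 CPM in the same order. The calls of pax6a and pax6b were kept whichever library was left out, and that of rx2 was lost without any 1 of 7. Between the compounds these 3 were higher and six3b, of the same list, was lower (-0.44, limma adjusted p 0.00538), with a difference of -0.19 from control that did not pass. Of 6 myeloid markers 3 fell against control and 2 were lower than with canagliflozin, at 115 to 169, 128 to 239 and 138 to 206 CPM. Against control lyz lost the call without any 1 of 3 libraries, coro1a without any 1 of 5 and lcp1 without any 1 of 10. Among controls, control 4 had the highest sum of the neuron and eye markers and the lowest of the myeloid markers. Among the canagliflozin pools, the same held for canagliflozin 4 (601, 390.3 and 138 CPM).

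In the remaining marker lists calls were fewer, beside the same shares of all genes. The counts at an unadjusted p have no exact share beside them, but such a p was common. By unadjusted limma p, dvl2 (0.0501) ranked 3877 of 11964 tested genes for empagliflozin against control. Between the compounds dvl3a (0.037) ranked 4287. These counts are therefore not read as results. Of 5 markers of the midbrain-hindbrain boundary pax2a rose against control, lost without any 1 of 6 libraries, and was higher than with canagliflozin, lost without any 1 of 7. The list summed to 153 to 161 CPM with empagliflozin, 122 to 151 in control and 126 to 172 with canagliflozin. Of 7 tailbud markers limma called 0 against control and 0 between the compounds, with 1 and 1 at an unadjusted p under 0.05, at 52.3 to 61.5, 48.6 to 62.5 and 49.4 to 63.96 CPM. Of 7 markers of dorsal neural tube and crest it called 0 against control, with 3 at an unadjusted p under 0.05, at 263 to 315, 227 to 277 and 261 to 286 CPM. Between the compounds pax3a of that list was higher (0.29), lost without any 1 of 3 libraries. The lists of neural progenitors (4 tested), epidermis and fin fold (6) and muscle (5) had no limma call against control, with 2, 1 and 0 at an unadjusted p under 0.05. Between the compounds gfap (-0.28) and sox19a (-0.18), each lost without any 1 of 6 libraries, krt4 (-0.33), lost without any 1 of 8, and myog (-0.54), lost without any 1 of 3, were lower. The fin-fold gene and2 was higher (0.55), lost without either of 2 libraries. Progenitor sums were 1015 to 1047, 943 to 1097 and 1023 to 1104 CPM with empagliflozin, in control and with canagliflozin, and muscle sums 11375 to 15399, 12939.9 to 16370.2 and 13103 to 15584. Those of epidermis and fin fold were 23188 to 25003, 24959.6 to 30359.7 and 27318 to 29888. No marker found in the table for these lists had a mean under 1 CPM. The part of these cell types in the Wnt gene differences was not tested.

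The authors' deposited table for empagliflozin against control, made with another test, held 6 members under a false discovery rate of 0.05. These were the 5 called here and wnt3, at 0.041 in the authors' deposited table. The authors' deposited table for the compounds held 8 members under 0.05, and that for canagliflozin against control 0. The share of all genes under 0.05 in the authors' deposited tables was not counted here. These member counts therefore have no background beside them. Among the 8 was wnt9b, which did not pass here, and the authors' deposited table gives it a rate of 0.0441. The receptors called here between the compounds were not under 0.05 in the authors' deposited table (fzd7a 0.121, fzd8a 0.195, fzd9b 0.0516 and fzd10 0.125). Nor were wnt4b (0.0888), wnt11 (0.0726) and sfrp5 (0.0938) in the authors' deposited table. The other members called here between the compounds were under 0.05 there.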

How the data were processed

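RNA of 12 pools of zebrafish embryos was sequenced as 50 bp pairs with a stranded mRNA kit, per the labels' protocols. FastQC, R 3.6.1 and the danRer10 build are named in the submitters' processing notes; no aligner, counter or strand setting is named there. The deposited signal is CPM scaled by TMM: all values were whole reads within 0.001 reads after multiplication by the effective library size, and recomputed TMM factors differed from the deposited factors by at most 4.5e-06. The authors' deposited tables also give a p-value, a false discovery rate and a log2 fold change per gene.

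Genes with a mean of at least 1 CPM (11964 of 14134) were fitted with limma 3.58.1 in R 4.3.3 on log2(CPM + 1), with all 12 libraries in 1 fit, a mean per group and a variance trend. Tests were two-sided, with Benjamini-Hochberg adjustment over all tested genes at 0.05. Log2 differences are on the CPM + 1 scale and understate the change of low genes. Alternatives are given in the closing section and included edgeR 4.0.16 and DESeq2 1.42.0 on the recovered counts, which the authors deposited only in scaled form. The fit was tested on simulated counts with known changes. The simulated counts had the same dispersion in every gene and no pools that deviated together, unlike the data. They check the code and do not measure how reliable the calls here are. Libraries of a group were not copies of each other (chi-square per degree of freedom 5.05 to 39.3).

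The members, lists and tests were chosen with earlier results of these data known. Named genes were all members that passed, axin2 and lef1, the largest difference and the highest CPM per role, the 5 smallest p where none passed, and up to 4 called genes per list, not all of which are reported; others were named after their values were seen. Members were matched by symbol; 2 had no Entrez ID in the table. List genes not found in the table are not analysed here, and no sequence was used. The deposited group means and the filtered tables were not used.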

Additional observations from a re-analysis of the deposited data

Results flagged for a closer look

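Of 138 sets of 4 pools (46 genes in 3 groups), 11 held a pool whose gap to the nearest other pool took up more of the range of the set than Dixon's 95% limit for 4 values. Chance flags about 1 in 20. Canagliflozin 4 was that pool in 7 of them. It was low for wnt9b (7.21 CPM, next 16.8), wnt8b (2.34, next 3.48), wnt10a (2.17, next 3.35), dvl1b (2.70, next 3.43) and axin2 (106 CPM, next 121.8), and high for sfrp1a (93.5, next 70.9) and wnt2ba (0.840, next 0.497). Control 4 was high for wnt5b (27.1 CPM, next 23.1) and wnt16 (6.67, next 6.02). Canagliflozin 3 was high for wnt11 (11.4, next 8.81), and canagliflozin 2 was low for sfrp2 (50.1, next 59.8).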

How the results depend on the processing

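Over 24 alternatives, none of the 45 tested Wnt genes changed sign where it passed as reported or in the alternative. With empagliflozin against control, the 5 members called came to 2 with no minimum, 3 with the compared groups fitted alone and 11 without control 4 and canagliflozin 4 together, where all 5 were kept; leaving out each library gave 0 (without control 3) to 6 (without control 4). Of all genes 1589 passed, 1105 with no minimum and 1992 with the compared groups alone. They came to 268 to 3033 with a library left out and 4246 without both. Between the compounds, 14 members came to 22 without both, all 14 among them, and to 9 to 17 with a library left out; all genes came to 4887 without both, against 3049, and to 1932 to 4234. For canagliflozin against control 0 members passed in all settings; of all genes DESeq2 called 24, 11 higher and 13 lower, and limma 0 to 7 with a library left out. Members whose groups did not overlap came to 17 and 11 without both libraries for empagliflozin and canagliflozin against control, against 10 and 5, beside 38.8% and 16.4% of all genes, against 19.1% and 4.49%. With a library left out they came to 10 to 17 and 5 to 12, beside 19.1% to 38.8% and 4.49% to 10.2% of all genes. The causes were not tested, except that fewer libraries were fitted.

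Some member calls were lost in other settings. Against control dkk1b was lost with no minimum (adjusted p 0.0519), quantile normalization (0.0545) and the compared groups alone (0.054). sfrp1b was lost with no minimum (0.0657), in edgeR (0.0558) and with no variance trend (0.0548). wnt10b was lost with a pseudocount of 5 (0.0516), no minimum (0.0699) and the compared groups alone (0.0576). Between the compounds fzd8a was lost with no variance trend (0.0542) and the compared groups alone (0.0562). wnt11 was lost with no minimum (0.067), in edgeR (0.051) and with the compared groups alone (0.0551). wnt4b was lost with no minimum (0.0528), the replicate block (0.0519) and the compared groups alone (0.0505). wnt5a had no adjusted p in DESeq2 against control and is not counted as lost there. Calls gained with all libraries included fzd10, lower with empagliflozin against control with quantile normalization (limma adjusted p 0.0445). Between the compounds they included wnt9b with the replicate block and wnt11r in the settings given above. Calls of lrp6, fbxw11b, sp5a, cby1, lcp1 and krt4 were also lost with no minimum, among other settings. Same-numbered libraries share only a number: their deviations correlated at -0.125 to 0.592, and with the replicate block 5 and 14 members became 5 and 15. Of all genes 1589 and 3049 became 2269 and 3456 with that block. Scaling moved the median of all genes by at most 0.011 on the log2 scale, from 0.0072 to -0.0040 between the compounds with quantile normalization. Depth limits members with few reads, such as wnt5a, dkk2 and dkk3b.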

Other observations

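In the control pools alone the spread differed between members. The SD of CPM over the 4 controls was 2.79 for sfrp1b at a mean of 6.77 and 1.21 for dkk3b at 3.02, while it was 1.31 for fzd8a at 61.98 and 0.896 for sfrp5 at 41.2. The SDs were not adjusted for the level of each gene. dkk2, a Dickkopf antagonist gene, was at 2.63, 1.93, 1.55 and 0.917 CPM in the controls, a wider span than the 1.71, 1.89, 1.94 and 2.06 of empagliflozin.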
